A study of Mus musculus with 7 samples.

Results

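Insr, Igf1r, Igf2r, Lepr, Lrp8, Cd320 and Bsg, 7 of the 32285 genes counted in all 7 libraries, were taken by their symbols in the gene table and followed through the cells of the mouse brain vessel wall. They share a place on the vascular surface rather than a family: Insr and Igf1r are insulin-type receptor tyrosine kinases, Igf2r is the mannose 6-phosphate and IGF2 receptor, Lepr is the leptin receptor, Lrp8 is a receptor of the low density lipoprotein receptor family, Cd320 takes up vitamin B12 on transcobalamin, and Bsg, also called basigin, is a cell surface glycoprotein of the immunoglobulin family. Only Lrp8 is a lipoprotein receptor in the usual sense.

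The study prepared brain microvessels with magnetic beads against CD31, a surface protein of endothelial cells, from 1 hemisphere without brain stem, olfactory bulbs and cerebellum, and made single cell RNA libraries of the captured cells. Mice were C57Bl6 wild type without treatment, 12 months old in 3 libraries and 3 months old in 4 libraries, and the vessels were digested with collagenase. The 12 months libraries are labelled single index and the 3 months libraries dual index, and the versions of the authors' counting software differ in the same way, so age cannot be told apart from either. Nothing in the labels says which libraries came from separate animals, so p-values measure the spread between these libraries.

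In brain endothelium, hormones and nutrients that cannot diffuse across the barrier are met by receptors and carriers on the luminal surface. Insulin and the insulin-like growth factors bind Insr and Igf1r, which signal through insulin receptor substrates and phosphatidylinositol 3-kinase, while Igf2r carries lysosomal enzymes with mannose 6-phosphate tags and clears IGF2. Lrp8 binds reelin and apolipoprotein E, Cd320 internalises transcobalamin with its vitamin, and Bsg escorts the monocarboxylate transporter encoded by Slc16a1 to the membrane.

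Before filtering, the 12 months libraries held 8706961 to 25493316 UMIs and the 3 months libraries 20041722 to 44861008. Of 42882 distinct barcodes before filtering, 209 occurred in more than 1 library. After filtering, 37176 cells remained, with 715 to 1370 median genes per cell at 12 months and 1552 to 2204 at 3 months. Clusters named by marker genes gave 1842 arterial, 2130 venous and 11540 capillary endothelial cells, 908 pericytes, 1128 smooth muscle cells and 2682 microglia. None of the 7 genes was among the features used to cluster or name the cells. Levels are CPM, the UMIs of a gene scaled to 1e6 UMIs of the class in a library, and differences are log2 values with their standard errors (SE) from edgeR's quasi-likelihood test, with the library as a term between classes and Benjamini-Hochberg adjustment over all genes tested. A difference was called at an adjusted p under 0.05. Summed UMIs do not tell fewer expressing cells from less RNA per cell. CPM is a share of the UMIs of a class, and cells averaged 7134 UMIs in arterial, 11904 in venous and 4955 in capillary cells, so UMIs per cell are given where they change the direction.

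The pericyte sums held a large endothelial part. The summed level of 10 endothelial markers, none of them at 0, stood at 36.8% to 71.2% of the capillary level in pericytes, against 3.60% to 9.57% in smooth muscle cells and 1.56% to 7.34% in microglia. Pericytes in which under 0.2% of UMIs came from those markers, 379 cells in the 5 libraries with at least 20 of them, are therefore given beside all pericytes. The capillary level of each library times its endothelial marker share gives, in smooth muscle cells, 933 CPM for Bsg against 811 observed, 10.5 for Lrp8 against 4.84, 7.53 for Cd320 against 15.1, 68.1 for Igf1r against 192 and 9.97 for Insr against 42.5. In microglia the same product is 415 CPM for Bsg against 767 observed, 4.99 for Lrp8 against 4.91, 3.38 for Cd320 against 13.6, 33.3 for Igf1r against 66.6 and 4.85 for Insr against 36.2.

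Among the 6 classes, 6 of the 7 genes had their highest mean CPM in capillary cells and Igf2r had its lowest endothelial level there. In UMIs per cell, venous cells had the highest mean of Insr (1.49 against 0.928 in capillary cells) and Lepr (0.188 against 0.127). The same held for Cd320 (0.955 against 0.592) and Bsg (129 against 71.6). Igf1r and Lrp8 stayed highest in capillary cells, at 6.18 and 0.899 UMIs per cell. Against capillary cells and as a share of UMIs, 5 members were lower and 1 was higher in arterial cells, where 39.8% of 10737 genes tested were called. Of the genes neither clustered on nor used as markers, which is how the members stood, 33.4% were called (17.7% lower and 15.8% higher). In venous cells 6 members were lower and 1 was higher, also as a share of UMIs. There 39.8% of 11827 genes were called, or 34.3% of genes neither clustered on nor used as markers (20.7% lower and 13.6% higher). Igf1r and Lrp8 showed the lower level in both segments, Lepr mainly in arterial cells, and the Cd320 difference passed the threshold in venous cells and not in arterial cells.

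**Figure D1:**
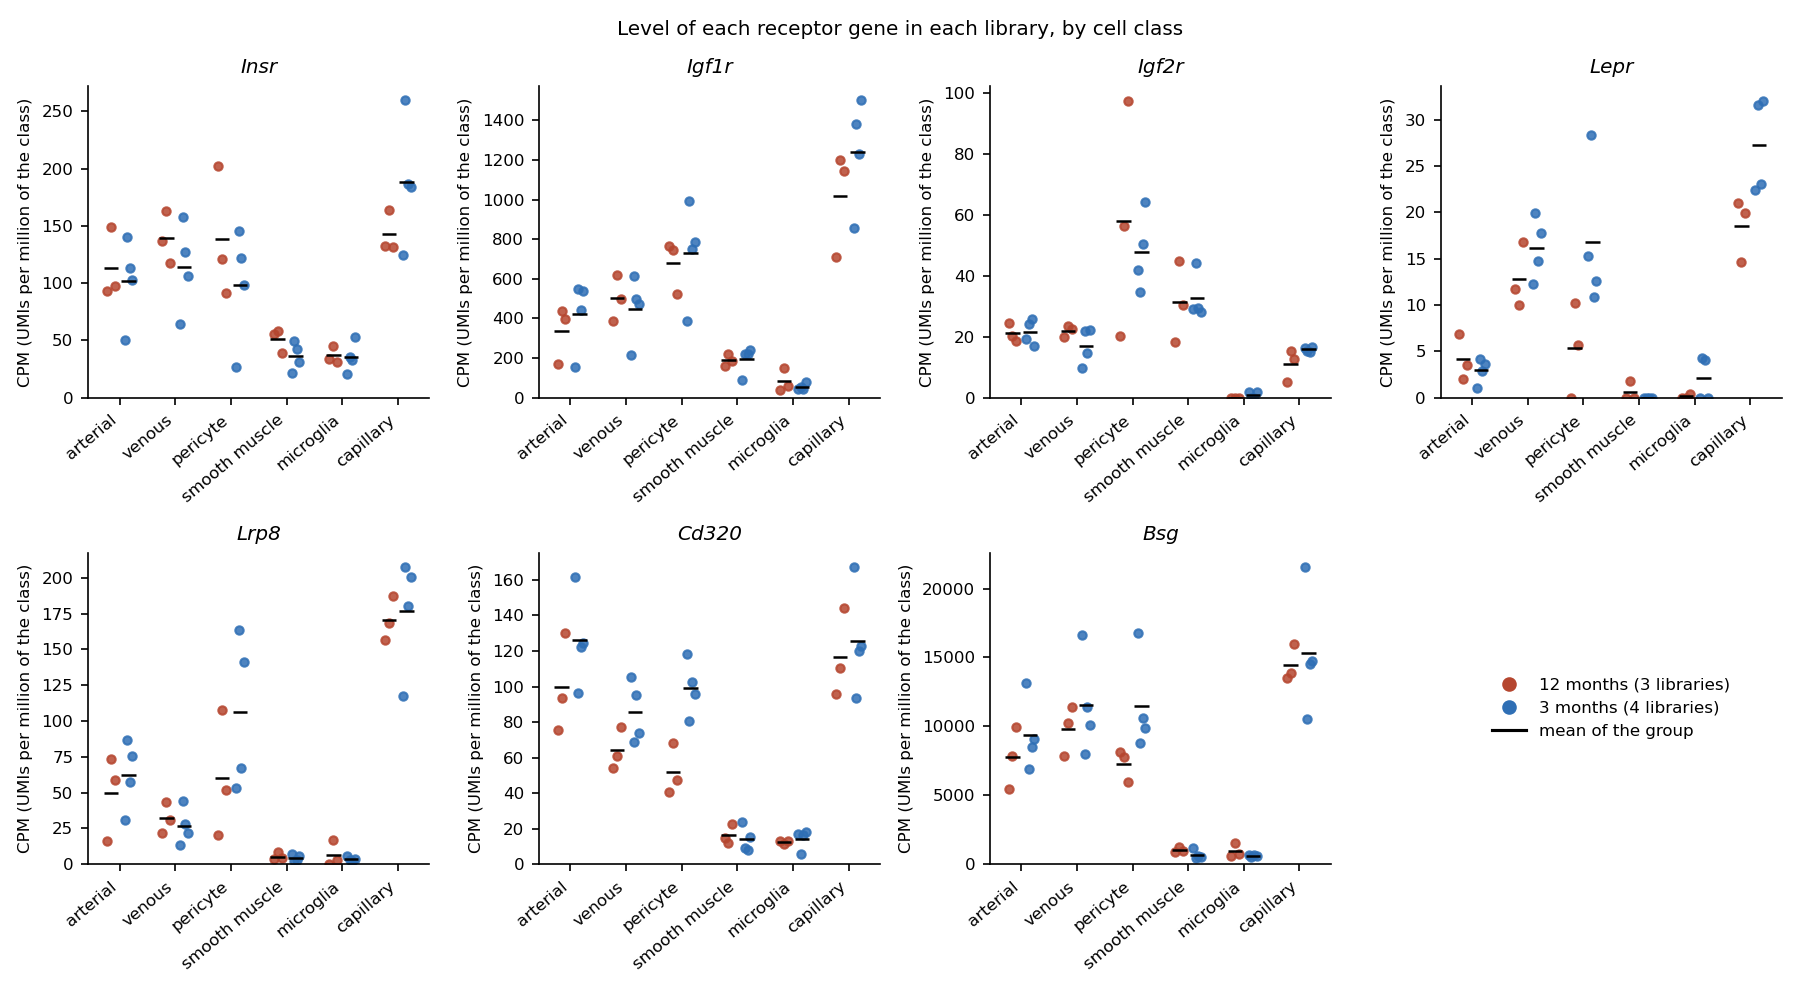
Level of each gene in CPM (vertical axes, each from 0) in 6 classes of cells, with 1 point per library, 12 months left of 3 months and a line at the mean of each group. Igf1r and Lrp8 were highest in capillary cells, with means of 1146 and 174 CPM, and Igf2r was highest in pericytes among these classes, with a mean of 52.3 CPM.

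Insr, the insulin receptor gene (chr8:3122061-3279617, minus strand, GRCm38), was detected in every class and library. In capillary cells its level had a lowest of 125, a median of 164 and a highest of 260.1 CPM over the 7 libraries, and in venous cells a lowest of 64.4, a median of 127 and a highest of 163 CPM. Pericytes gave 26.7, 121 and 202 CPM as lowest, median and highest, arterial cells 49.9, 103 and 149 CPM, smooth muscle cells 21.9, 42.7 and 58.6 CPM and microglia 20.7, 34.1 and 53.0 CPM. The ranges of neighbours in this order overlapped throughout, and smooth muscle cells and microglia lay below every capillary library.

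The arterial CPM of Insr was below the capillary one in all 7 libraries, with a log2 difference of -0.66 ± 0.09 (adjusted p = 8.91e-06, edgeR). The venous CPM was lower in 6 of 7 libraries, at -0.44 ± 0.09 (adjusted p = 0.000783). In UMIs per cell, venous cells had 1.61 times the capillary mean and more than capillary cells in 7 of 7 libraries, and arterial cells had 0.85 times it and more in 2 of 7. Arterial and venous cells differed by -0.25 ± 0.07 (adjusted p = 0.00773), a call that was not kept with finer clusters (-0.18, adjusted p = 0.0524) or in 1 fit over the 6 classes (-0.24, adjusted p = 0.065). With these included, the call was lost in 3 of 15 alternative settings, with a highest adjusted p of 0.114 (edgeR or DESeq2). The difference from capillary cells was -1.84 ± 0.13 in smooth muscle cells and -2.24 ± 0.14 in microglia, so Insr had the smallest drop of the members lower in these classes.

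Igf1r, the receptor for IGF1 and IGF2 (chr7:67952827-68233668, plus strand), had a lowest of 711, a median of 1199.6 and a highest of 1501 CPM in capillary cells. Pericytes followed with 386, 751 and 995 CPM as lowest, median and highest, venous cells with 216, 497 and 618 CPM and arterial cells with 156, 440.1 and 551 CPM. Smooth muscle cells had 91.1, 219 and 241 CPM and microglia 40.7, 54.5 and 148 CPM. No arterial, venous, smooth muscle or microglial library reached the lowest capillary library, although neighbouring classes in the order overlapped.

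The Igf1r difference from capillary cells was -1.65 ± 0.10 in arterial cells (adjusted p = 8.2e-11, edgeR), about 3.13-fold lower, and -1.28 ± 0.09 in venous cells (adjusted p = 2.03e-10), about 2.42-fold lower. All 7 libraries showed both in CPM, while in UMIs per cell venous Igf1r was 0.946 times the capillary level and higher in 4 of 7 libraries. The arterial level was also lower than the venous one, at -0.38 ± 0.11 (adjusted p = 0.0103). Smooth muscle cells were -2.39 ± 0.11 and microglia -4.26 ± 0.17 from capillary cells. After each cell was thinned to 1000 UMIs, 64.6% of capillary cells, 33.2% of venous cells, 27.8% of arterial cells and 4.72% of microglia had an Igf1r UMI.

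Igf2r (chr17:12682406-12769664, minus strand) ran the other way. Its level had a lowest of 20.2, a median of 50.6 and a highest of 97.4 CPM in pericytes, then 18.4, 29.5 and 44.9 CPM as lowest, median and highest in smooth muscle cells, 16.9, 20.1 and 25.7 CPM in arterial cells, 9.63, 21.9 and 23.7 CPM in venous cells and 5.07, 15.2 and 16.7 CPM in capillary cells. Microglia held 2 UMIs of Igf2r in all 7 libraries together, a pooled level 44.5-fold below capillary cells with a counting interval of 12.3 to 368. Every pericyte library and every smooth muscle library lay above every capillary library. The lowest pericyte library held 1 Igf2r UMI in 30 cells, and the lowest smooth muscle library held 5 Igf2r UMIs. Igf2r lies opposite to Airn, an antisense RNA. Airn had 647 UMIs against 1935 for Igf2r, summed over the arterial, venous, capillary, pericyte, smooth muscle and microglia classes. No source used here gives the use of strand in counting, so the Igf2r counts are uncertain to that extent.

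Igf2r was higher than in capillary cells by 1.91 ± 0.17 in pericytes (adjusted p = 1.08e-10, edgeR) and by 1.44 ± 0.14 in smooth muscle cells (adjusted p = 6.19e-09), each in 7 of 7 libraries. The arterial difference was 0.56 ± 0.15 (adjusted p = 0.00557), higher in 7 of 7 libraries, and lost its call with sums thinned to the smallest (0.49, adjusted p = 0.219). The venous difference, 0.37 ± 0.14 (adjusted p = 0.0428), was higher in 5 of 7 libraries and lost its call when any 1 of 5 libraries was left out, with adjusted p values of 0.0665, 0.112 and 0.108 without 12 months replicates 1, 2 and 3 and 0.0835 and 0.0989 without 3 months replicates 2 and 4. With these 5 included, the venous call was lost in 7 of 19 alternative settings, with a highest adjusted p of 0.355 (edgeR or DESeq2). In the thinned cells 9.11% of pericytes, 3.00% of smooth muscle cells and 1.34% of capillary cells had an Igf2r UMI, against 0.0810% of microglia. The arterial minus venous difference was 0.12 ± 0.16 with an interval of -0.23 to 0.46 (adjusted p = 0.614).

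Lepr, the leptin receptor gene (chr4:101717404-101815352, plus strand), had a lowest of 14.7, a median of 22.4 and a highest of 32.0 CPM in capillary cells and 9.98, 14.8 and 20.0 CPM as lowest, median and highest in venous cells. Arterial cells held 1.06, 3.58 and 6.84 CPM, below every capillary library and every venous library. Pericytes had 0, 10.8 and 28.3 CPM. Smooth muscle cells held 2 UMIs in all and microglia 6, pooled levels 71.0-fold (counting interval 19.6 to 587) and 24.5-fold (11.2 to 66.9) below capillary cells.

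The Lepr difference from capillary cells was -2.84 ± 0.19 in arterial cells (adjusted p = 1.77e-10, edgeR), 7.16-fold lower, and -0.65 ± 0.09 in venous cells (adjusted p = 6.71e-06), 1.56-fold lower as a share of UMIs. In UMIs per cell the venous Lepr level was 1.49 times the capillary one, higher in 7 of 7 libraries. The arterial minus venous difference was -2.21 ± 0.22 (adjusted p = 1.03e-07). Lepr was thus the member with the largest gap between the arterial and venous ends of the tree, resting on 33 arterial UMIs. In the thinned cells 2.58% of capillary and 0.264% of arterial cells had a Lepr UMI, against 0.105% of microglia.

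The bases before the RefSeq starts are shown for Igf1r and Lepr, which were highest in CPM in capillary cells, and for Igf2r, which was highest, among the 6 classes, in pericytes. Each is 250 bases from RefSeq (GRCm38.p6), read 5′ to 3′ on the strand of the gene, at chr7:67952007-67952256 for Igf1r, chr4:101717157-101717406 for Lepr and chr17:12769707-12769956 for Igf2r.
Igf1r: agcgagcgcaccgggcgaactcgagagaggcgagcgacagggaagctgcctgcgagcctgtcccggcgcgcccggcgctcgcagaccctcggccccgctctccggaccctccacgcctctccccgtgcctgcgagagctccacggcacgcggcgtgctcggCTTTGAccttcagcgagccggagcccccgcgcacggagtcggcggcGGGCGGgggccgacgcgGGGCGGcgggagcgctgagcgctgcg
Lepr: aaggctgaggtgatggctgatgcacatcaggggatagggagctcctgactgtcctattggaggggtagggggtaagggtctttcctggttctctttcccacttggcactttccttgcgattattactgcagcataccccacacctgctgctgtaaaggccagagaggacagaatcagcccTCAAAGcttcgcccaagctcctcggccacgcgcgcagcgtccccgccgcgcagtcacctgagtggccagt
Igf2r: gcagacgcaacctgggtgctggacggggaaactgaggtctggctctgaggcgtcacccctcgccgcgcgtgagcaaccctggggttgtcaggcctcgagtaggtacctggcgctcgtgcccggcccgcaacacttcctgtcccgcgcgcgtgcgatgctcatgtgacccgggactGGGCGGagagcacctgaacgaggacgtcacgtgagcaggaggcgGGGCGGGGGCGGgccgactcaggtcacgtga
Capitals mark matches on either strand to CTTTGA, the core of the TCF/LEF motif of Wnt signalling, and to GGGCGG, the SP1 box. CTTTGA occurred in 13.83% and GGGCGG in 32.74% of 32851 promoters of that length, and the motifs did not overlap each other. The Igf1r window, of which 77.6% of bases are G or C, held 1 CTTTGA and 2 GGGCGG matches, the Lepr window, at 58.4%, held 1 CTTTGA match, and the Igf2r window, at 69.2%, held 3 GGGCGG matches. Of the windows not printed, that of Lrp8, also highest in capillary cells, held 0 matches to either motif, and that of Cd320 held 1 CTTTGA and 0 GGGCGG matches.

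Lrp8, which binds reelin and apolipoprotein E (chr4:107802261-107876840, plus strand), had a lowest of 118, a median of 180.5 and a highest of 207 CPM in capillary cells. Pericytes had 20.2, 67.4 and 163 CPM as lowest, median and highest, arterial cells 16.4, 58.8 and 86.5 CPM and venous cells 13.3, 27.9 and 44.1 CPM. Microglia held 0, 3.10 and 17.1 CPM and smooth muscle cells 2.17, 4.08 and 8.25 CPM. Every arterial, venous, microglial and smooth muscle library was below every capillary library. The antisense RNAs Lrp8os1 and Lrp8os2, over Lrp8, had 3 and 12 UMIs against 12216 for Lrp8, summed over the classes above.

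Among the 3 endothelial segments, Lrp8 was lowest in venous cells. Its difference from capillary cells was -2.58 ± 0.11 in venous cells (adjusted p = 2.78e-14, edgeR), 5.97-fold lower, and -1.57 ± 0.12 in arterial cells (adjusted p = 1.15e-09), 2.97-fold lower, each in 7 of 7 libraries. Arterial cells lay above venous cells by 0.99 ± 0.13 (adjusted p = 5.1e-06) in 6 of 7 libraries. Smooth muscle cells were -5.02 ± 0.19 and microglia -5.83 ± 0.25 from capillary cells. An Lrp8 UMI was present in 16.2% of thinned capillary cells, 4.35% of arterial, 2.60% of venous and 0.251% of smooth muscle cells.

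Cd320, the transcobalamin receptor gene (chr17:33843091-33849774, plus strand) had overlapping levels in arterial and capillary cells. Capillary cells had a lowest of 93.5, a median of 120.0 and a highest of 167 CPM and arterial cells a lowest of 75.3, a median of 122 and a highest of 162 CPM. Pericytes followed with 40.4, 80.5 and 118 CPM as lowest, median and highest and venous cells with 54.0, 73.8 and 105 CPM, while smooth muscle cells had 8.13, 14.7 and 23.7 CPM and microglia 5.74, 13.3 and 18.3 CPM. The highest smooth muscle and microglial libraries lay below the lowest library of the other 4 classes.

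Against capillary cells, the arterial Cd320 difference was -0.07 ± 0.07 with an interval of -0.21 to 0.07 (adjusted p = 0.425, edgeR) and was higher in 3 of 7 libraries, and it was -0.18 (adjusted p = 0.0142) with the capillary cluster led by Lars2 left out. The venous difference was -0.62 ± 0.07 (adjusted p = 3.1e-07), lower in 7 of 7 libraries in CPM, while UMIs per cell were 1.61 times the capillary ones in venous cells and 1.42 times in arterial cells. In CPM, arterial cells lay above venous cells by 0.55 ± 0.07 (adjusted p = 2.34e-06), also in 7 of 7. A Cd320 UMI was present in 9.61% of thinned arterial, 6.49% of venous and 10.5% of capillary cells, against 1.35% of microglia. Smooth muscle cells and microglia were -2.91 ± 0.14 and -3.22 ± 0.15 from capillary cells.

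Bsg, the basigin gene (chr10:79704491-79711969, plus strand), had a lowest of 10536, a median of 14506 and a highest of 21562 CPM in capillary cells and 7835, 10256 and 16621 CPM as lowest, median and highest in venous cells. Arterial cells had 5454, 8491 and 13124 CPM and pericytes 5993, 8783 and 16767 CPM. Smooth muscle cells, at 445, 854 and 1214 CPM, and microglia, at 515, 671 and 1566 CPM, were below every arterial, venous and capillary library. The arterial, venous and capillary ranges overlapped each other. The fenestrated endothelial cluster described below, at 518 to 1024 CPM, lay within the smooth muscle range.

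The Bsg difference from capillary cells was -0.79 ± 0.09 in arterial cells (adjusted p = 6.72e-07, edgeR) and -0.45 ± 0.06 in venous cells (adjusted p = 2.66e-06), lower in 7 of 7 libraries in both in CPM. In UMIs per cell the venous Bsg level was 1.80 times the capillary one, higher in 7 of 7 libraries, and the arterial one 0.876 times it. Arterial and venous cells differed by -0.36 ± 0.07 (adjusted p = 0.000303), a call not kept in 1 fit over the 6 classes (-0.34, adjusted p = 0.105). Smooth muscle cells were -4.07 ± 0.15, 16.8-fold lower, and microglia -4.39 ± 0.18, 20.9-fold lower. Nearly every thinned capillary cell, 99.8%, had a Bsg UMI, against 45.4% of microglia, in which 415 of 767 CPM equals the product of capillary level and endothelial share.

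**Figure D2:**
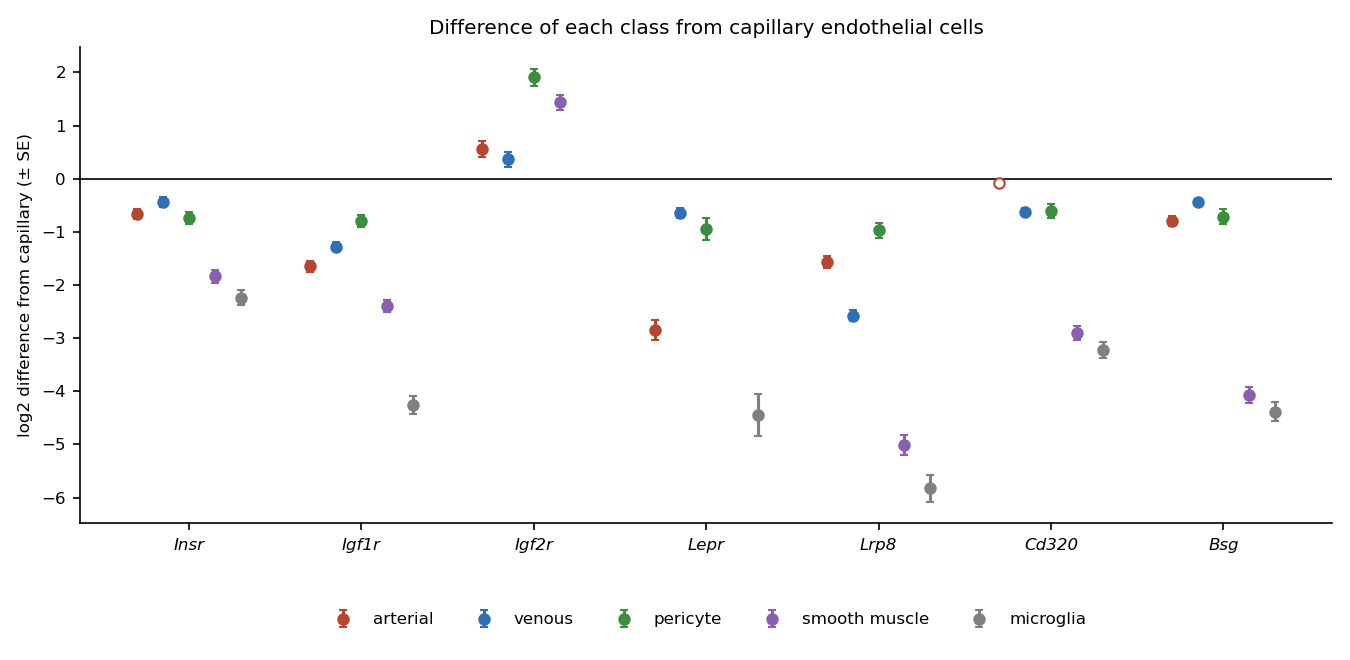
Log2 difference from capillary endothelial cells ± SE over 7 libraries, for each gene (horizontal axis) and class (colour), with filled points called at an adjusted p under 0.05 and open points not called. Lepr in smooth muscle cells and Igf2r in microglia, at 2 UMIs each, are left out. Igf2r was above 0 in pericytes (1.91) and smooth muscle cells (1.44), and the other 6 genes were below 0 in smooth muscle cells and microglia.

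Among all the classes compared with capillary cells, 65.6% of 10808 genes tested were called in smooth muscle cells, or 61% of genes neither clustered on nor used as markers (31.7% lower and 29.3% higher). In microglia 70.4% of 11558 were called, or 66.8% of such genes (35.7% lower and 31.1% higher). All 7 members were called in both, 6 lower and 1 higher in smooth muscle cells and 7 lower in microglia, with Lepr in smooth muscle cells and Igf2r in microglia resting on 2 UMIs each. In arterial against venous cells 6 of 7 members were called, 2 higher and 4 lower, where 40.7% of 10847 genes were, or 33.4% of genes neither clustered on nor used as markers (17.9% higher and 15.5% lower).

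The arterial class was made of 2 clusters. The cluster led by Fbln5 and Cytl1, with 380 cells, had 2936 ± 1083 CPM of Bsg, 188 ± 78.1 CPM of Igf1r and 9.91 ± 7.76 CPM of Lrp8 (SD, n = 7 libraries). The cluster led by Gkn3, with 1462 cells, had 9944 ± 2718 CPM of Bsg, 419 ± 171 CPM of Igf1r and 65.2 ± 26.2 CPM of Lrp8. For Bsg the cluster led by Fbln5 reached at most 4633 CPM and the other had at least 7483 CPM. Cd320 was 109 ± 50.9 CPM in the cluster led by Fbln5 and 115 ± 25.6 CPM in the one led by Gkn3, with overlapping ranges. No test was made between clusters.

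Next to the arterial class stood an unnamed endothelial cluster of 4836 cells led by Unc5b, which carried markers of arterial and capillary cells. Its levels of Igf1r (1048 ± 298 CPM), Lrp8 (186 ± 34.2 CPM) and Bsg (13734 ± 2585 CPM) lay near the capillary means, while its Lepr level of 11.7 ± 5.77 CPM lay between the arterial mean of 3.47 and the capillary mean of 23.5 CPM.

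Among the 4 capillary clusters, the one led by Lars2 and unannotated transcripts stood apart. Insr was 312 ± 91.9 CPM in it and 145 ± 39.4 CPM in the other 3 capillary clusters, Igf1r 1922 ± 364 and 1025 ± 277 CPM, Lepr 41.6 ± 7.47 and 20.9 ± 5.32 CPM, and Lrp8 286 ± 39.4 and 157 ± 33.4 CPM (SD, n = 7), each higher in 7 of 7 libraries. Bsg ran the other way, at 10828 ± 2655 CPM in it and 15720.0 ± 3844 CPM in the others, lower in 7 of 7. This cluster made up 7.08% to 14.8% of capillary cells at 12 months and 37.3% to 39.7% at 3 months. Where leaving this cluster out cost a member its call or turned its difference round, the value is given with that result or in the closing section.

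Fenestrated endothelial cells, a cluster of 1305 cells led by Plvap, the gene of a protein of fenestral diaphragms, held less of 4 members than capillary cells and more of Igf2r. Igf1r was 87.3 ± 33.7 CPM there and 1146 ± 279 CPM in capillary cells, 13.1-fold lower, Lrp8 was 3.16 ± 2.41 and 174 ± 30.4 CPM, 55.0-fold lower, and Bsg was 786 ± 203 and 14968 ± 3358 CPM, 19.1-fold lower (SD, n = 7 libraries). Cd320 was 13.6 ± 4.89 CPM against 122 ± 26.5 CPM. None of these 4 genes overlapped between the groups. Igf2r was higher, at 77.6 ± 21.1 against 13.8 ± 4.03 CPM, again without overlap. Insr, at 269 ± 141 against 169 ± 47.4 CPM, and Lepr, at 24.3 ± 9.46 against 23.5 ± 6.29 CPM overlapped. These values carry no test, and the share of all genes without overlap between these groups is not given here.

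**Figure D3:**
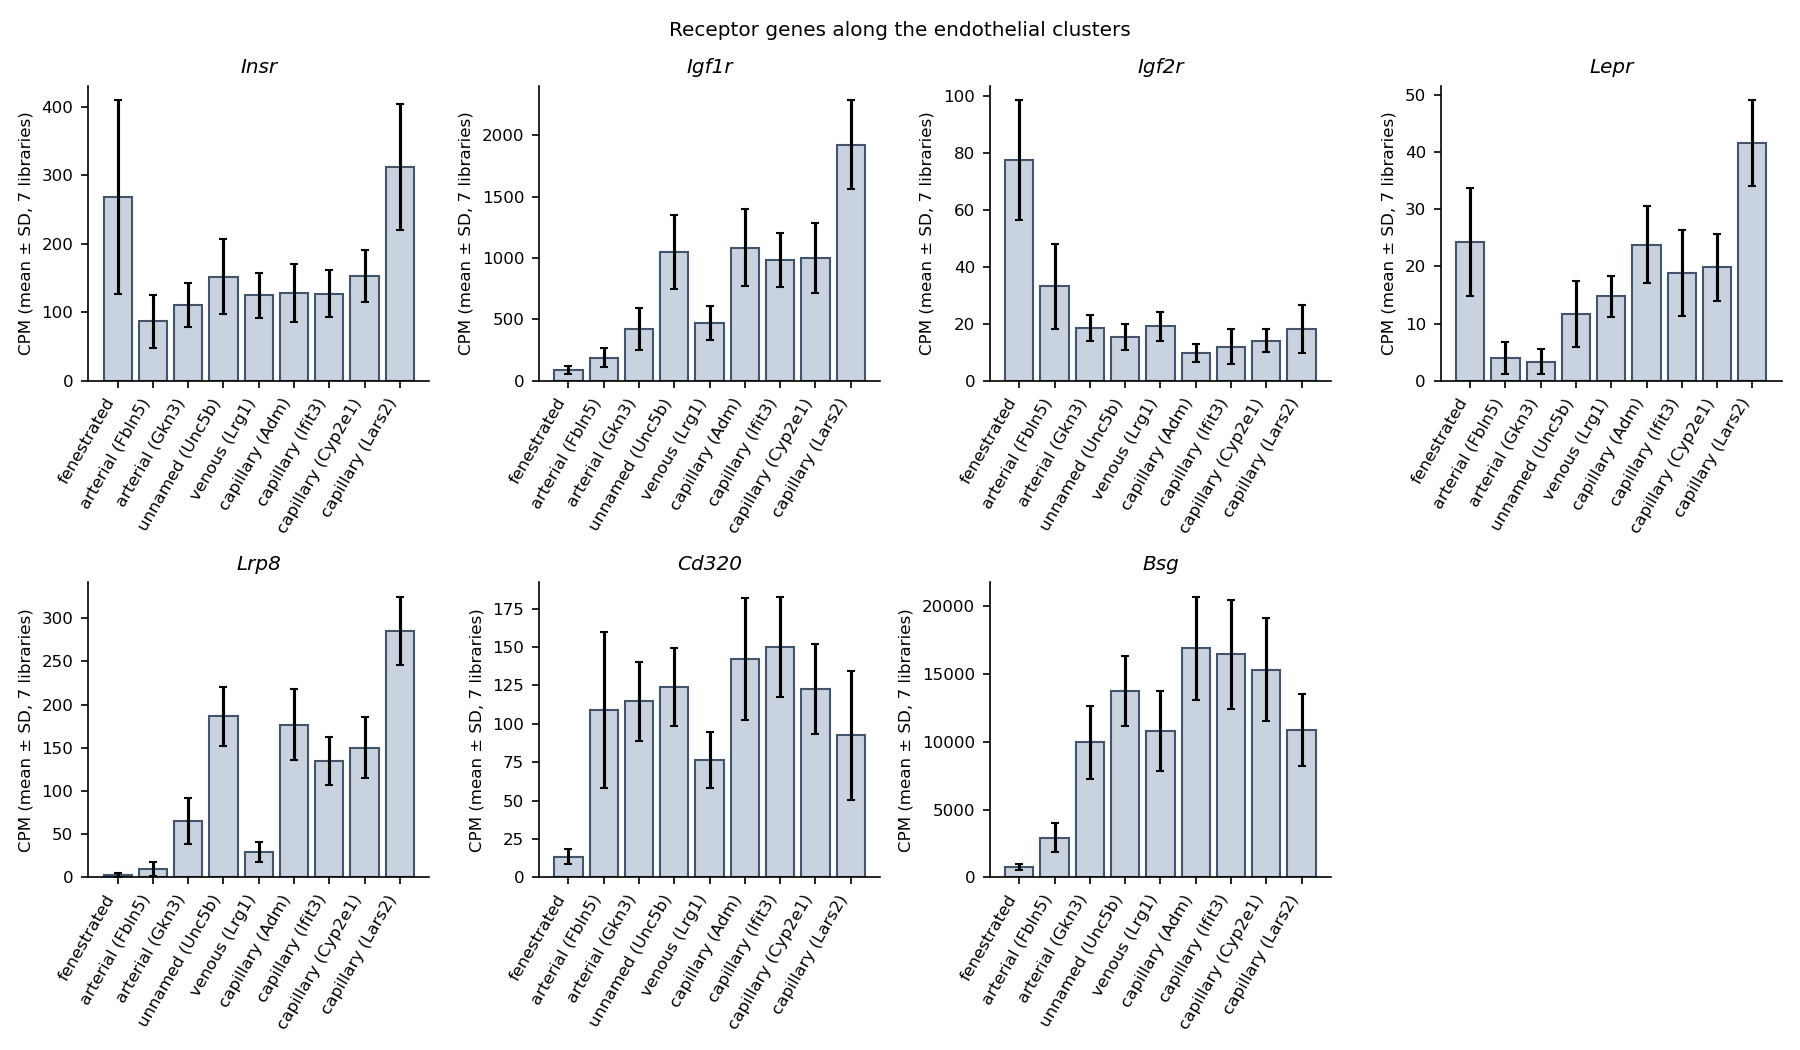
Mean CPM ± SD over 7 libraries (vertical axes, from 0) of each gene in 9 endothelial clusters, named by class and a leading gene, with the fenestrated and arterial clusters on the left and the capillary clusters on the right. Igf1r, Lrp8 and Bsg were lowest in the fenestrated cluster, at 87.3, 3.16 and 786 CPM, and Igf2r was highest there.

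Pericytes, the mural cells of capillaries, showed 1 member higher and 6 lower than capillary cells, where 32.9% of 10178 genes tested were called, or 25.8% of genes neither clustered on nor used as markers (13.2% higher and 12.6% lower). The 6 lower members had log2 differences of -0.97 for Lrp8 to -0.61 for Cd320. The Insr call was lost with sums thinned to the smallest (-0.50, adjusted p = 0.305). The product of capillary level and endothelial marker share was 8823 CPM for Bsg, 694 for Igf1r, 104 for Lrp8, 104 for Insr, 71.7 for Cd320 and 14.4 for Lepr. The observed pericyte means were 9702, 708, 86.4, 115, 79.0 and 11.9 CPM in the same order. For Igf2r the same product was 8.35 CPM against 52.3 CPM observed.

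In the 379 pericytes with few endothelial UMIs, Igf2r was 64.8, 103, 119, 157 and 176 CPM over the 5 libraries, with a mean of 124 ± 44.1 CPM (SD), above every capillary library. Igf1r was 74.6, 84.1, 103, 166 and 184 CPM, and Insr was 45.9, 54.2, 76.2, 91.1 and 97.2 CPM. Igf1r and Insr thus lay below every capillary library, and Igf1r lay below the lowest of the 7 sums over all pericytes. Bsg was 275, 442, 468, 591 and 1069 CPM and Cd320 0, 11.5, 17.9, 20.3 and 21 CPM, against capillary means of 14968 and 122 CPM. Lrp8 had 1 UMI in these cells, a level 126-fold below capillary cells with a counting interval of 22.6 to 4969. Lepr had none, and with a floor of 3 UMIs over the 5 libraries, or 4.33 CPM, the capillary level was at least 5.76-fold higher.

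**Figure D4:**
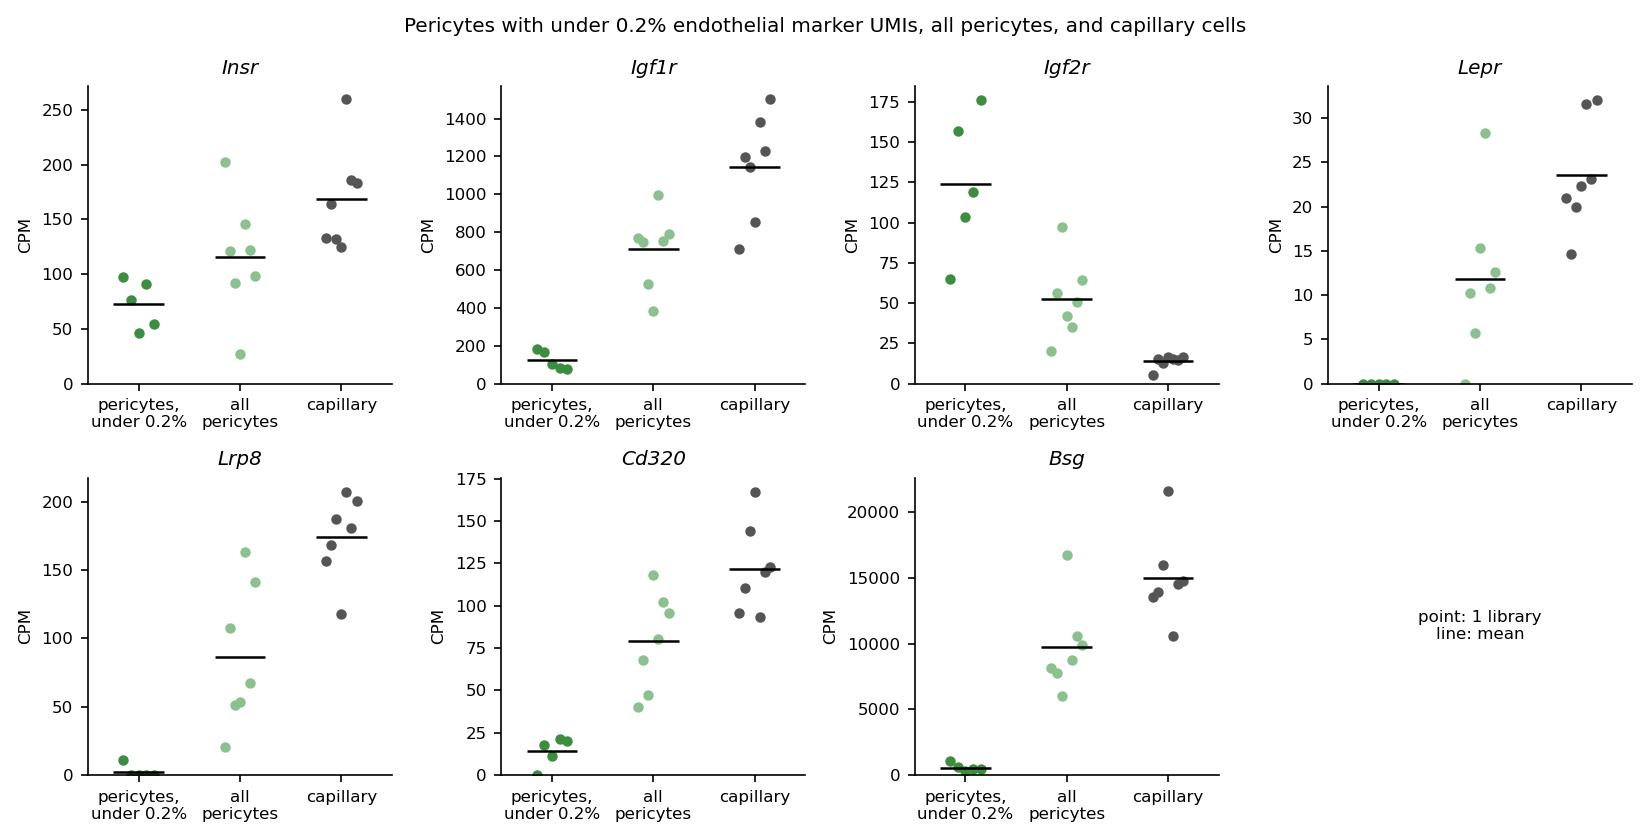
CPM (vertical axes, from 0) of each gene in pericytes with under 0.2% endothelial marker UMIs (5 libraries), all pericytes (7 libraries) and capillary cells (7 libraries), with 1 point per library and a line at the mean. Igf2r was highest in the first group, with a mean of 124 CPM, and the other 6 genes were lowest there.

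Against smooth muscle cells, the mural cells of arteries and arterioles, 6 members were higher in pericytes, where 50.3% of 9680 genes tested were called, or 43.8% of genes neither clustered on nor used as markers (19.7% higher and 24.1% lower). The difference was 3.22 ± 0.17 for Bsg and 1.47 ± 0.11 for Igf1r (adjusted p = 2.75e-14 and 1.48e-11, edgeR). Both turned round in the pericytes with few endothelial UMIs, to -0.69 (adjusted p = 1.63e-06) for Bsg and -1.13 (adjusted p = 3.17e-08) for Igf1r. The smooth muscle cells were not filtered for endothelial UMIs, and their Bsg level exceeded the product of capillary level and endothelial share in 1 of 7 libraries, against 7 of 7 for Igf1r. Insr, at 0.98 ± 0.14 (adjusted p = 1.76e-06), was 0.48 (adjusted p = 0.141) in those cells. Igf2r was 0.30 ± 0.19 with an interval of -0.09 to 0.70 (adjusted p = 0.195) in all pericytes and 1.58 (adjusted p = 8.07e-10) in pericytes with few endothelial UMIs.

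The genes around the receptors were followed in 8 lists of 141 genes, chosen with results of these data known. Of 12 insulin and IGF ligands and binding proteins, 4 were tested in arterial against capillary cells and all 4 were higher, with a median log2 difference of 4.03 against -0.02 over all genes tested. The filter on low counts left 4 of the 12, and high arterial counts help a gene to pass it. The count and the median therefore describe those 4 genes and not the list. The binding protein genes Igfbp4, at 168 ± 137 CPM in arterial and 2.28 ± 1.16 CPM in capillary cells, and Igfbp3, at 154 ± 43.2 and 4.41 ± 3.12 CPM, had differences of 5.97 ± 0.16 and 4.89 ± 0.23 (SD and SE, n = 7). Igfbp7 was higher in arterial cells by 0.88 ± 0.09 and lower in venous cells (-0.43 ± 0.07). In pericytes Igf2, the growth factor that Igf2r clears, was 83.2 ± 39.2 CPM against 1.10 ± 0.951 CPM in capillary cells, a difference of 6.09 ± 0.22. Igf2 is also 1 of 8 fibroblast markers, which summed to 121 to 357 CPM in pericytes and 1.45 to 4.50 CPM in capillary cells, with 1 of the 8 at 0 in pericytes, and their part in the Igf2 and Igf2r values was not tested.

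Of 24 genes of insulin and IGF receptor signalling, 21 were tested in arterial cells, with 5 higher and 6 lower, and 21 in venous cells, with 3 higher and 8 lower. The median differences were -0.05 and -0.12, against medians of -0.018 and -0.015 over all genes tested in these comparisons. The regulatory subunit gene Pik3r3 was higher in arterial cells by 1.05 ± 0.08, and Foxo1, a transcription factor held back by insulin signalling, was lower in arterial cells (-0.46 ± 0.07) and higher in venous cells (0.55 ± 0.07). The adaptors Grb14 and Grb10, which hold back Insr and Igf1r, were lower in both segments. Grb14 had differences of -1.18 ± 0.11 in arterial and -1.06 ± 0.07 in venous cells, and Grb10 had -1.01 ± 0.08 and -0.51 ± 0.07. In venous cells 7 of 13 inhibitors tested were higher, among them Socs3 (1.84 ± 0.10), a feedback inhibitor of cytokine signalling, and 2 were lower, with a median of 0.23.

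Leptin receptor signalling shares its kinase and transducers with the interleukin 6 family. Of 9 genes tested in each segment, 3 were lower and 1 was higher in arterial cells, and 3 were lower and 4 were higher in venous cells, with medians of -0.14 and -0.05. Il6ra was lower in arterial cells (-2.11 ± 0.10) and higher in venous cells (0.56 ± 0.07), and Il6st, the shared signalling chain, and Stat3 were higher in venous cells by 1.31 ± 0.06 and 0.65 ± 0.06.

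Around Igf2r, 6 of 20 mannose 6-phosphate sorting genes tested were higher and 4 lower in arterial cells, with a median of 0.08, and 7 of 21 were higher and 1 lower in pericytes, with a median of 0.13. M6pr, the small mannose 6-phosphate receptor, was lower in arterial cells (-0.66 ± 0.07), and Sort1, a sorting receptor, was higher in pericytes by 1.16 ± 0.13. In microglia 16 of 22 were higher and none was lower, with a median of 1.23 against -0.08 over all genes, among them the lysosomal protease gene Ctsd (5.30 ± 0.13). The Igf2r gene itself had 2 UMIs there.

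In the low density lipoprotein receptor family and its partners, 13 genes were tested in arterial cells, with 3 higher and 5 lower and a median of 0.02, and 15 in venous cells, with 5 higher and 6 lower and a median of 0.01. Apoe, a ligand of Lrp8, was 1851 ± 488 CPM in venous cells against 821 ± 104 CPM in capillary cells, a difference of 1.18 ± 0.09. Lrp1, another receptor of the family, was 173 ± 62.5 CPM in pericytes and 312 ± 72.7 CPM in microglia, against 1.70 ± 0.736 CPM in capillary cells. The differences were 6.56 ± 0.14 and 7.47 ± 0.16, opposite in sign to those of Lrp8.

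For vitamin B12 uptake and use, 12 genes were tested in arterial cells, with 1 higher and 2 lower, and 13 in venous cells, with 2 of each, at medians of -0.05 and 0.01. Tcn2, the transcobalamin that Cd320 binds, was lower in arterial cells (-0.54 ± 0.09), higher in venous cells (0.65 ± 0.07) and higher in microglia (1.34 ± 0.10). Of the basigin partners and ligands, 3 of 12 tested were higher and 4 lower in arterial cells (median 0.10), and 1 of 10 was higher and 5 lower in venous cells (median -0.29). Slc16a1 and Slc7a5, transporters that also helped to name capillary cells, were -3.12 ± 0.13 and -2.95 ± 0.12 in arterial cells, which describes the class and is no finding. Itga6, an integrin chain with no part in naming, was lower in arterial (-1.26 ± 0.09) and venous cells (-0.99 ± 0.07). Each named difference passed edgeR's threshold.

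Genes whose pattern was most like that of each member were ranked by Pearson correlation of log2(CPM + 1) over 42 sums of class and library, among 5108 genes. For Insr they were Dop1a (0.95), Bmpr2 (0.93) and Plcg1 (0.92), and for Igf1r Ldlrad3 (0.94), Ncoa1 (0.93) and Tfrc (0.93). For Igf2r they were Ehd3 (0.94), Ecm2 (0.94) and Tns2 (0.94), and for Lepr Slc35f2 (0.90), Polk (0.88) and Car14 (0.88). For Lrp8 they were Spock2 (0.96), Car5a (0.94) and Slco1c1 (0.94), for Cd320 Egfl7 (0.96), Bsg (0.95) and S100a13 (0.95) and for Bsg Kank3 (0.98), Vwa1 (0.98) and Ramp2 (0.98). Spock2, Tfrc and Egfl7 were also markers that named cells. The sums share libraries and depth, so the coefficients are descriptions without a test.

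Age was compared within each class, and none of the members passed edgeR's threshold in any of them. In capillary cells 4.11% of 11689 genes were called, in arterial cells 0.224% of 9368, in venous cells 2.43% of 10401, in pericytes 1.25% of 8382, in smooth muscle cells 0.267% of 8231 and in microglia 1.96% of 6924. DESeq2 called none of the members either. At an unadjusted p under 0.05 there were 1 of 7 members in capillary cells, 2 of 6 in pericytes, 1 of 3 in microglia and 0 in the other classes. Over all genes 2010 of 11689 passed that threshold in capillary cells, 987 of 8382 in pericytes and 833 of 6924 in microglia. Low counts kept Lepr out of the tests in arterial cells and pericytes, Lepr and Lrp8 in smooth muscle cells, and Igf2r, Lepr, Lrp8 and Cd320 in microglia.

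Lepr was the member with an unadjusted p under 0.05 in capillary cells. Its level was 21, 14.7 and 19.9 CPM in the 3 libraries at 12 months, against 22.4, 31.6, 23.1 and 32.0 CPM in the 4 libraries at 3 months, and the groups did not overlap. The log2 difference was -0.51 ± 0.20, with an interval of -0.94 to -0.08 (adjusted p = 0.2, edgeR). The Lars2 cluster, with a Lepr level of 41.6 CPM against 20.9 CPM in other capillary clusters, took a larger share of capillary cells at 3 months. Over 19 alternative settings, among them a fit without that cluster, the Lepr difference ran from -0.69 to -0.31 and was never called. A cause of the difference was not tested.

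The other members in capillary cells overlapped between the ages. Insr was 132, 164 and 132 CPM at 12 months, against 125, 260.1, 186 and 184 CPM at 3 months, a difference of -0.31 ± 0.23 with an interval of -0.82 to 0.19. Over 19 alternative settings, among them a fit without the Lars2 cluster, the Insr difference ran from -0.47 to -0.0553 and was never called. Igf1r was 711, 1199.6 and 1143 CPM, against 855, 1382, 1229 and 1501 CPM, at -0.18 ± 0.24 with an interval of -0.71 to 0.34. Igf2r was 5.07, 15.2 and 12.8 CPM, against 16.2, 15.4, 14.9 and 16.7 CPM, with its lowest library at 12 months. Lrp8 was 156, 168 and 187 CPM at 12 months, against 118, 207, 180.5 and 200.4 CPM at 3 months, and Cd320 was 95.6, 110.3 and 144 CPM, against 167, 93.5, 120.0 and 123 CPM. Bsg was 13536, 13908 and 16008 CPM at 12 months, against 21562, 10536, 14506 and 14723 CPM at 3 months, with both the highest and the lowest library at 3 months. Bsg, Cd320 and Lrp8 had differences of 0.02, 0.01 and 0.05, each turned round by at least 1 alternative setting, with intervals of -0.48 to 0.53, -0.42 to 0.44 and -0.39 to 0.48.

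In pericytes the ages did not overlap for Cd320, Bsg and Lepr, and no member was called. The share of all genes without overlap between the ages is not given here, for pericytes or capillary cells, so the lack of overlap is a description. Cd320 was 40.4, 68.1 and 47.3 CPM at 12 months, against 118, 80.5, 102 and 95.8 CPM at 3 months, a difference of -0.76 ± 0.26 (adjusted p = 0.176, edgeR). Bsg was 8143, 7743 and 5993 CPM, against 16767, 8783, 10591 and 9897 CPM, at -0.70 ± 0.27 (adjusted p = 0.236), and was 0.95 (adjusted p = 0.0642) in pericytes with few endothelial UMIs. Lepr was 0, 10.3 and 5.73 CPM at 12 months, against 15.3, 28.3, 10.8 and 12.6 CPM at 3 months, without a test. The endothelial markers summed to 7993 to 11834 CPM in the 12 months pericytes and 10372 to 13331 CPM in the 3 months pericytes, and their part in these differences was not tested. Only 30 pericytes came from 12 months replicate 1.

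In arterial cells the age differences of 6 members ran from -0.29 to 0.21 on the log2 scale, and in venous cells those of 7 members ran from -0.33 to 0.49. Igf2r had the highest venous value, with 19.8, 23.7 and 22.4 CPM at 12 months, against 9.63, 21.9, 14.6 and 22.3 CPM at 3 months and overlapping groups. In smooth muscle cells 5 members ran from -0.06 to 0.53.

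In microglia Bsg was 572, 1566 and 733 CPM at 12 months, against 671, 515, 701 and 614 CPM at 3 months, a difference of 0.69 ± 0.28 (adjusted p = 0.297, edgeR), with overlapping groups. Endothelial markers in microglia summed to 386 to 1452 CPM at 12 months and 289 to 449 CPM at 3 months, and 12 months replicate 2 had the highest Bsg level. In smooth muscle cells Bsg was 854, 1214 and 924 CPM, against 1152, 445, 573 and 512 CPM, at 0.53 ± 0.29 (adjusted p = 0.683), and at 0.98 (adjusted p = 0.00373) without 3 months replicate 1. Endothelial markers there summed to 1431 to 1892 CPM at 12 months and 684 to 1087 CPM at 3 months. The part of these markers in the Bsg differences of microglia and smooth muscle cells was not tested.

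The test of class by age asks whether the age difference in a class differs from that in capillary cells, and it called 1 member in each of 3 classes. Insr had an age difference 0.70 ± 0.13 greater in venous than in capillary cells (adjusted p = 0.000633, edgeR), where 0.930% of 11716 genes were called. Venous Insr was 137, 163 and 118 CPM at 12 months, against 64.4, 158, 127 and 106 CPM at 3 months, so the groups overlapped in venous as in capillary cells. Without the Lars2 cluster among the capillary cells the value was 0.43 (adjusted p = 0.167), and the call was kept in the other alternatives except with sums thinned to the smallest.

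The arterial value for Insr was 0.56 ± 0.14 (adjusted p = 0.0416, edgeR), where 0.691% of 11716 genes were called. Arterial Insr was 93.1, 149 and 97.4 CPM at 12 months, against 49.9, 140.0, 113 and 103 CPM at 3 months. This call was not kept by DESeq2 (adjusted p = 0.229), without the Lars2 cluster (0.30, adjusted p = 0.605), with a further capillary-like cluster led by hemoglobin genes (0.55, adjusted p = 0.0545), or without any 1 of 6 of the 7 libraries, at adjusted p values of 0.581 and 0.0647 without 12 months replicates 2 and 3, and 0.118, 0.136, 0.052 and 0.0678 without 3 months replicates 1 to 4. With sums thinned to the smallest, the arterial Insr value turned round to -0.69. With all of these included, its call was lost in 10 of 14 alternative settings. For Cd320 the pericyte value was -0.85 ± 0.21 (adjusted p = 0.0202), where 1.63% of 11716 genes were called. It was -0.47 (adjusted p = 0.575) without 12 months replicate 3, -0.81 (adjusted p = 0.075) without 3 months replicate 3 and -0.69 (adjusted p = 0.0868) without the Lars2 cluster. No member was called in smooth muscle cells, where 2.13% of genes were, or in microglia, where 4.34% were.

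**Figure D5:**
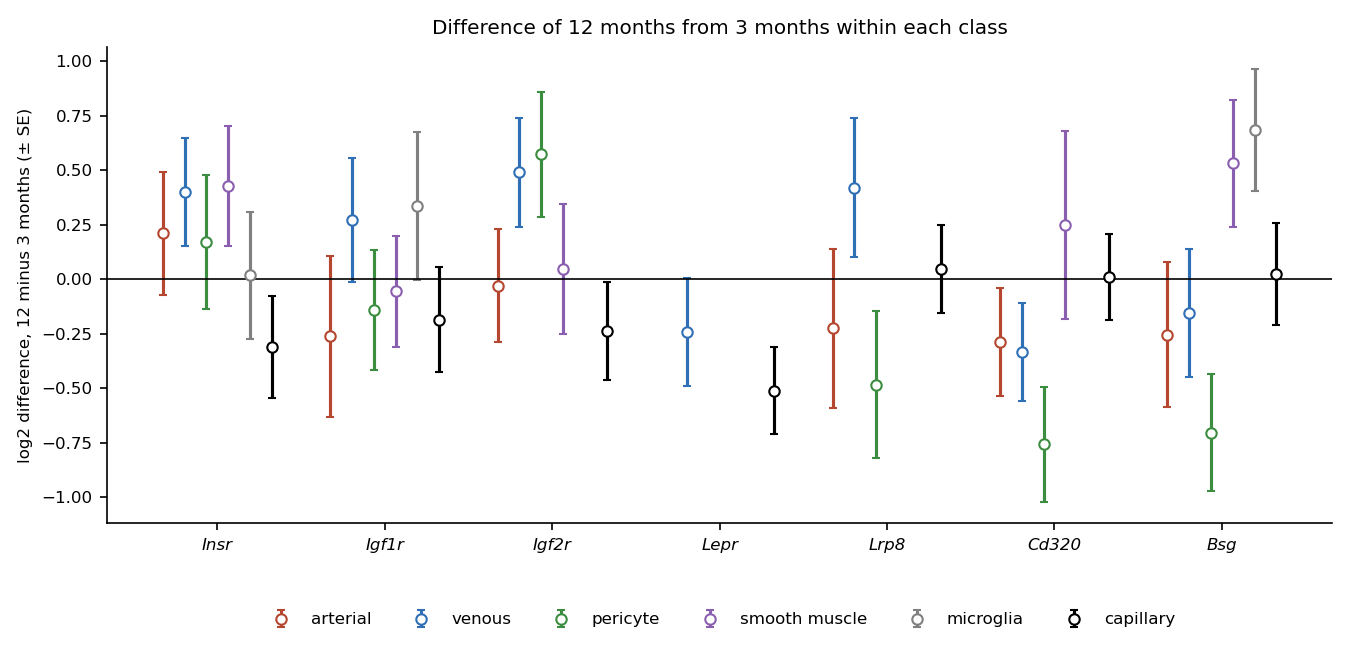
Log2 difference of 12 months from 3 months ± SE (vertical axis) for each gene and class with enough counts, from fits on 3 and 4 libraries, and open points because none was called. Cd320 and Bsg in pericytes lay lowest, at -0.76 and -0.70, and Lepr in capillary cells was at -0.51.

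Of the 106 genes of the 8 lists tested by age in capillary cells, 7 were higher and 3 lower at 12 months, where 4.11% of all genes were called. Of the 21 insulin and IGF receptor signalling genes tested none passed the threshold, and of 13 inhibitors 2 were higher, with Socs3 at 197 ± 44.5 CPM at 12 months and 45.6 ± 8.26 CPM at 3 months, a difference of 2.21 ± 0.18 (adjusted p = 2.32e-05, edgeR). Ctsd was 165 ± 25.1 CPM at 12 months and 108 ± 11.2 CPM at 3 months, higher at 12 months by 0.69 ± 0.15. It is abundant in microglia, whose 12 markers summed to 90.1 to 268 CPM in capillary cells at 12 months and 45.3 to 62.0 CPM at 3 months, and their part in this difference was not tested. Slc7a5, the large neutral amino acid transporter, was lower, at 289 ± 27.1 CPM at 12 months and 755 ± 104 CPM at 3 months (-1.29 ± 0.19), and was a leading gene of the Lars2 cluster.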

How the data were processed

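Cells were counted as UMIs per gene by the authors with Cell Ranger, version 4.0.0 for the 12 months libraries and 6.1.1 for the 3 months libraries, per the file headers. The deposited values are raw counts in filtered matrices. No source used here gives the use of strand or of intronic reads. No column of values was left unused.

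Cells with at least 500 genes and at most 15% mitochondrial UMIs were kept, and Scrublet (scanpy 1.11.5) removed doublets at 0.8% per 1000 cells. Of 42882 distinct barcodes before filtering, 209 were in more than 1 library (1 to 24 in each of 21 pairs of libraries). Seurat 5.3.0 (R 4.3.3) clustered the cells at a resolution of 0.5, without the members, lists and markers among its features. Clusters were named from marker genes, and names may differ from those of the study.

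Counts were summed per class and library, with at least 20 cells in each, and tested with edgeR 4.0.16 (quasi-likelihood, TMM, filterByExpr), with library as a term between classes and none between ages. Intervals are 95% intervals. Counting intervals and the floor of 3 UMIs cover counting error only. DESeq2 1.42.0 was an alternative. The edgeR steps were tested on simulated data. Gene positions are from GENCODE M21 (GRCm38), and RefSeq promoters were matched by symbol for 5 of the 7 members.

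The members and lists were chosen with earlier results of these data known. List genes named are among the 3 in each list past the threshold with the largest change and at least 50 CPM in 1 of the 2 groups, and like genes are the 3 with the highest correlation. Capillary clusters added or left out, and levels without each library, were chosen after seeing the data. 1 list gene is not reported here.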

Additional observations from a re-analysis of the deposited data

Results flagged for a closer look

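In 42 groups of 4 libraries, formed by member and class at 3 months and tested for 1 value apart from the rest, 3 had such a value, and chance gives about 1 in 20. Igf1r in smooth muscle cells was 91.1 CPM in 3 months replicate 1, against 222 to 241 CPM in the other 3 libraries. Igf2r in smooth muscle cells was 44.1 CPM in 3 months replicate 2, against 28.0 to 29.5 CPM in the others. Cd320 in microglia was 5.74 CPM in 3 months replicate 2, against 16.4 to 18.3 CPM in the others.

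The age difference of 3 member and class pairs differed from that in capillary cells by edgeR's test of class by age. It was 0.56 greater for Insr in arterial cells and 0.70 greater for Insr in venous cells on the log2 scale, and for Cd320 in pericytes the value was -0.85.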

How the results depend on the processing

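Between classes, 868 values of the members were recomputed, of which 845 kept direction and side of the threshold, 14 lost the call, 5 gained it and 4 turned round. The age comparisons set 3 libraries against 4, and index, software version and depth go with age. The cause of the changes below was not tested, except that thinning to the smallest sum removes counts.

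Sums thinned to the smallest called 2644 genes in arterial, 2537 in venous, 357 in pericytes, 3727 in smooth muscle cells and 3454 in microglia against capillary cells, 2895 in arterial against venous cells and 788 in pericytes against smooth muscle cells. The counts without thinning were 4277, 4702, 3346, 7092, 8142, 4415 and 4868. By age, thinning called 218 genes in capillary, 12 in arterial, 138 in venous cells, 4 in pericytes, 12 in smooth muscle cells and 72 in microglia, against 481, 21, 253, 105, 22 and 136. For class by age it called 1 in arterial, 0 in venous cells, 5 in pericytes, 6 in smooth muscle cells and 9 in microglia, against 81, 109, 191, 249 and 509. With no filter on low counts the age calls were 1125 in capillary, 186 in arterial, 685 in venous cells, 237 in pericytes, 128 in smooth muscle cells and 347 in microglia, and for class by age 161 in arterial, 188 in venous cells and 316 in pericytes. DESeq2 called 60 in arterial cells and 35 in pericytes by age, and 13 in arterial, 40 in venous cells and 310 in microglia for class by age. With at least 1000 genes per cell the age calls were 11 in arterial cells, 28 in pericytes and 35 in smooth muscle cells. They were 49 in smooth muscle cells at 10% mitochondrial UMIs, and in pericytes 27 with doublets doubled and 10 at resolution 1.0. Pericytes with few endothelial UMIs gave 13 by age and 2764 against smooth muscle cells. Class by age gave 193 in venous cells with the Unc5b cluster, and 46 in venous cells and 80 in pericytes without the Lars2 cluster.

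Leaving out 1 library gave 193 to 849 calls by age in capillary, 10 to 81 in arterial, 92 to 463 in venous cells, 12 to 254 in pericytes, 4 to 98 in smooth muscle cells and 79 to 170 in microglia. For class by age it gave 28 to 83 in arterial, 48 to 118 in venous cells, 35 to 257 in pericytes, 41 to 222 in smooth muscle cells and 328 to 441 in microglia.

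Same-numbered replicates of the 2 ages were not treated as pairs. Their correlations in capillary cells were 0.0288, 0.1831 and -0.071, and in no class were all 3 above 0.1. Over the classes they ran from -0.0237 (pericytes) to 0.1201 (arterial) for replicate 1 and from 0.0296 (pericytes) to 0.2289 (arterial) for replicate 2. For replicate 3 they ran from -0.071 (capillary) to 0.0415 (arterial). Such correlations cannot exclude that some libraries are paired. With the replicate number as a block the age calls were 250 in capillary, 38 in arterial, 235 in venous cells, 102 in pericytes, 20 in smooth muscle cells and 69 in microglia, and none was a member.

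Values that turned round were as follows. Igf2r in arterial against venous cells was -0.15 with thinned sums and -0.0265 to 0.23 without 1 library. Against smooth muscle cells, Igf1r and Bsg were -1.13 and -0.69 in pericytes with few endothelial UMIs. By age in capillary cells, Lrp8 was -0.036 with thinned sums, Cd320 was -0.0287 with no filter, -0.0229 with thinned sums, -0.0298 with 1000 genes, -0.18 without the Lars2 cluster and -0.017 with the replicate block, and Bsg was -0.0217 with no filter, -0.0324 with 1000 genes and -0.12 without the Lars2 cluster. Without 1 library, Igf1r, Lrp8, Cd320 and Bsg there ran from -0.33 to 0.0589, -0.11 to 0.19, -0.15 to 0.17 and -0.0835 to 0.23, and Insr in arterial cells from -0.0754 to 0.42. Bsg by age in pericytes was 0.95 in cells with few endothelial UMIs, Insr for class by age in arterial cells was -0.69 with thinned sums, and Il6st in pericytes against capillary cells was 0.11 with thinned sums.

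Levels per cell in place of CPM gave ratios to capillary cells in arterial cells of 0.85 for Insr, 0.507 for Igf1r, 0.517 for Lrp8, 1.42 for Cd320 and 0.876 for Bsg, and in venous cells of 1.61 for Insr, 0.946 for Igf1r, 2.99 for Igf2r, 1.49 for Lepr, 0.400 for Lrp8, 1.61 for Cd320 and 1.80 for Bsg. Mean UMIs per cell were 7134 in arterial, 11904 in venous and 4955 in capillary cells. The share of capillary cells with a UMI at 500 UMIs and without thinning was 8.93% and 44.0% for Insr, 43.4% and 86.4% for Igf1r, 0.618% and 6.54% for Igf2r, 1.32% and 10.3% for Lepr, 9.13% and 43.2% for Lrp8 and 5.64% and 34.2% for Cd320, and 98.6% at 500 UMIs for Bsg. In smooth muscle cells it was 0.045% and 0.091% for Lepr and 0.624% and 1.97% for Lrp8.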
